A study of Saccharomyces cerevisiae with 96 samples.

Results

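The external and internal transcribed spacers of the nuclear ribosomal RNA were measured in the capture libraries of *Saccharomyces cerevisiae*. These are ETS1 ahead of the 18S rRNA, ITS1 between 18S and 5.8S, ITS2 between 5.8S and 25S, and ETS2 behind 25S. Members were taken by class, as every entry annotated as a transcribed spacer in the 12 capture count tables. The 12 entries found by class held 0 reads in all 14 count tables (12 capture, 2 transcriptome), because reads from ribosomal RNA had been set aside and counted in a separate block of 27 entries. In that block the same 4 spacers are listed as 2 copies each, and these 8 entries, of 7647 in a capture table, carry all the spacer reads described here. A spacer was called only when both of its copies passed the test, and its level is given as the sum of its copies.

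The ribosomal DNA repeat is transcribed by RNA polymerase I into one long precursor, from which the mature 18S, 5.8S and 25S rRNAs are cut while the spacers between and around them are removed and degraded. The 5′-to-3′ exonuclease Rat1, for which Rai1 is a stabilising partner with decapping activity of its own, trims the 5′ ends of 5.8S and 25S rRNA and degrades spacer fragments. The nuclear exosome works from the other end. Dxo1 is a Rai1-related decapping nuclease that takes part in the last 5′ trimming of 25S rRNA, and Npy1 is a Nudix hydrolase that splits the pyrophosphate of NAD and of NAD-capped RNA.

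In NAD captureSeq, RNA with a 5′ NAD cap is tagged by adenosine diphosphate-ribosylcyclase (+ADPRC), coupled to biotin and bound to streptavidin, and a mock reaction without the enzyme (−ADPRC) gives the background. Of 96 libraries, 72 were capture libraries and 24 transcriptome libraries, with 3 biological replicates per group. Unfragmented RNA (48 libraries) was captured from 8 strains, and small and large fragments of alkali-sheared RNA (12 libraries each) from npy1Δ and WT.

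All strains derive from BY4742 (MATα his3Δ1 leu2Δ0 lys2Δ0 ura3Δ0) and were grown in YPD at 30 °C to log phase. The strains without RAI1 were rai1Δ, rai1Δnpy1Δ, dxo1Δrai1Δ and dxo1Δrai1Δnpy1Δ, and those with RAI1 were npy1Δ, dxo1Δ, dxo1Δnpy1Δ and WT. The open reading frames were replaced by drug markers (rai1::hphNT1, dxo1::natNT2, npy1::kanMX4), and all deletion strains came from crosses and random spores. The 48 unfragmented libraries were sequenced in 4 runs that are the 4 combinations of the RAI1 and DXO1 genotypes, so that effects of these deletions and of the run cannot be told apart, whereas the members of each pair differing by NPY1 or by ADPRC shared a run. For fragmented RNA, npy1Δ was sheared for 20 min and WT for 5 min, so strain and shearing time cannot be told apart there either.

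Unfragmented libraries held 470978 to 29300164 counted reads, small-fragment libraries 7820312 to 26362067 and large-fragment libraries 5814668 to 33878538. The spacers took 149 to 7647 reads, or 0.00888% to 0.0637% of the counts, in an unfragmented library. ETS2 was the rarest, and all 8 zeros among the 576 values of the spacer entries were ETS2. In unfragmented +ADPRC libraries the strain labels could be checked as groups: RAI1 had 0 to 3 reads in the 12 libraries in which it is deleted and 3 to 37 reads in 9 libraries of the other strains that carry it. Per 1000000 counts these ranges overlap, at up to 0.921 where RAI1 is deleted and from 0.628 where it is carried. RAI1 reads alone thus do not check each library. The WT libraries stand apart, because RAI1 had 0 reads in all 3, DXO1 0 to 4 and NPY1 0 to 2, so the check cannot be made in them. The fits and strain tests of RAI1 are therefore also given without WT. Leaving WT out makes the strains with and without RAI1 unequal in DXO1 and NPY1 genotype. In the transcriptome libraries WT had 0.562 to 1.07 RAI1 counts per 1000000, against 0 to 0.137 where RAI1 is deleted and 4.24 to 6.71 in the other strains that carry it. DXO1 was at 0 to 0.282 in WT, against 0 to 0.406 where deleted and 1.06 to 3.58 in the other carriers. NPY1 was at 1.80 to 3.64 in WT, against 0 to 2.15 where deleted and 19.8 to 27.2 in the other carriers. WT thus lay below the other carriers for each gene, and overlapped the deletion strains for DXO1 and NPY1. TMM scaling factors ran from 0.0479 to 3.28 in unfragmented libraries, and 3 −ADPRC libraries, all from strains lacking DXO1 and NPY1, had a factor at or below 0.1.

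ETS1, the 5′ external spacer whose removal starts with cuts ahead of 18S, held the most spacer reads in every strain but WT, not corrected for the lengths of the spacers. Levels are given as reads per 1000000 counted reads (rpm) in −ADPRC unfragmented libraries, replicate by replicate. ETS1 was at 250.4, 140.4 and 242 rpm in rai1Δ, and at 185, 126 and 279 rpm in rai1Δnpy1Δ. It was at 195, 171 and 254 rpm in dxo1Δrai1Δ, and at 192, 179.7 and 238 rpm in dxo1Δrai1Δnpy1Δ. The 4 strains without RAI1 thus overlapped one another fully. Among strains with RAI1, ETS1 was at 196, 221 and 234 rpm in npy1Δ, within the range of the strains without RAI1. It was at 64.7, 50.8 and 83.1 rpm in dxo1Δ, at 73.5, 76.8 and 69.2 rpm in dxo1Δnpy1Δ, and at 12.6, 13.3 and 21.6 rpm in WT. Ordered by mean, npy1Δ (217 ± 19.1 rpm, SD, n = 3) and the 4 strains without RAI1 (197 to 211 rpm) could not be separated by their spread, dxo1Δnpy1Δ (73.2 ± 3.80) and dxo1Δ (66.2 ± 16.2) overlapped each other below them, and WT (15.8 ± 4.99) was the lowest with no overlap.

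ETS2, the short 3′ external spacer that the RNase III enzyme Rnt1 cleaves on the nascent transcript, was at 17.9, 9.14 and 27.6 rpm in rai1Δ and at 9.48, 9.02 and 26.4 rpm in rai1Δnpy1Δ. It was at 9.31, 7.86 and 21.2 rpm in dxo1Δrai1Δ, and at 10.8, 14.0 and 21.5 rpm in dxo1Δrai1Δnpy1Δ. All 12 of these libraries were above every −ADPRC library of npy1Δ and WT. In strains with RAI1 it was at 5.71, 4.79 and 9.69 rpm in dxo1Δ, and at 7.71, 4.40 and 8.11 rpm in dxo1Δnpy1Δ. It was at 3.41, 2.91 and 1.67 rpm in npy1Δ and at 1.70, 1.23 and 1.70 rpm in WT, where it rests on 8, 7 and 3 reads. ETS2 was the one spacer for which the means of all 4 strains without RAI1 (12.8 to 18.2 rpm) lay above those of all 4 strains with RAI1 (1.55 to 6.74 rpm), although single libraries of both kinds overlapped (7.86 to 27.6 rpm, against 1.23 to 9.69 rpm).

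The internal spacers followed another order. ITS1, which is opened by cuts that separate the small from the large subunit precursor, was highest in npy1Δ at 185, 186 and 185 rpm. It ran from 52.6 to 149 rpm with a median of 65.1 rpm over the 12 libraries without RAI1, against 28.4 to 186 rpm with a median of 51.5 rpm over the 12 with RAI1, and both groups overlapped throughout. ITS2, which Las1 cuts and Rat1 with Rai1 trims back to the 25S end, was also highest in npy1Δ at 189.9, 206 and 216 rpm. It ran from 20.0 to 53.9 rpm in the strains without RAI1, against 56.5, 65.2 and 51.7 rpm in WT, which overlap only at the upper end. It was lowest in dxo1Δ at 8.31, 4.79 and 8.83 rpm and in dxo1Δnpy1Δ at 7.34, 6.36 and 8.19 rpm. These overlap each other and lie below all other libraries.

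**Figure D1:**
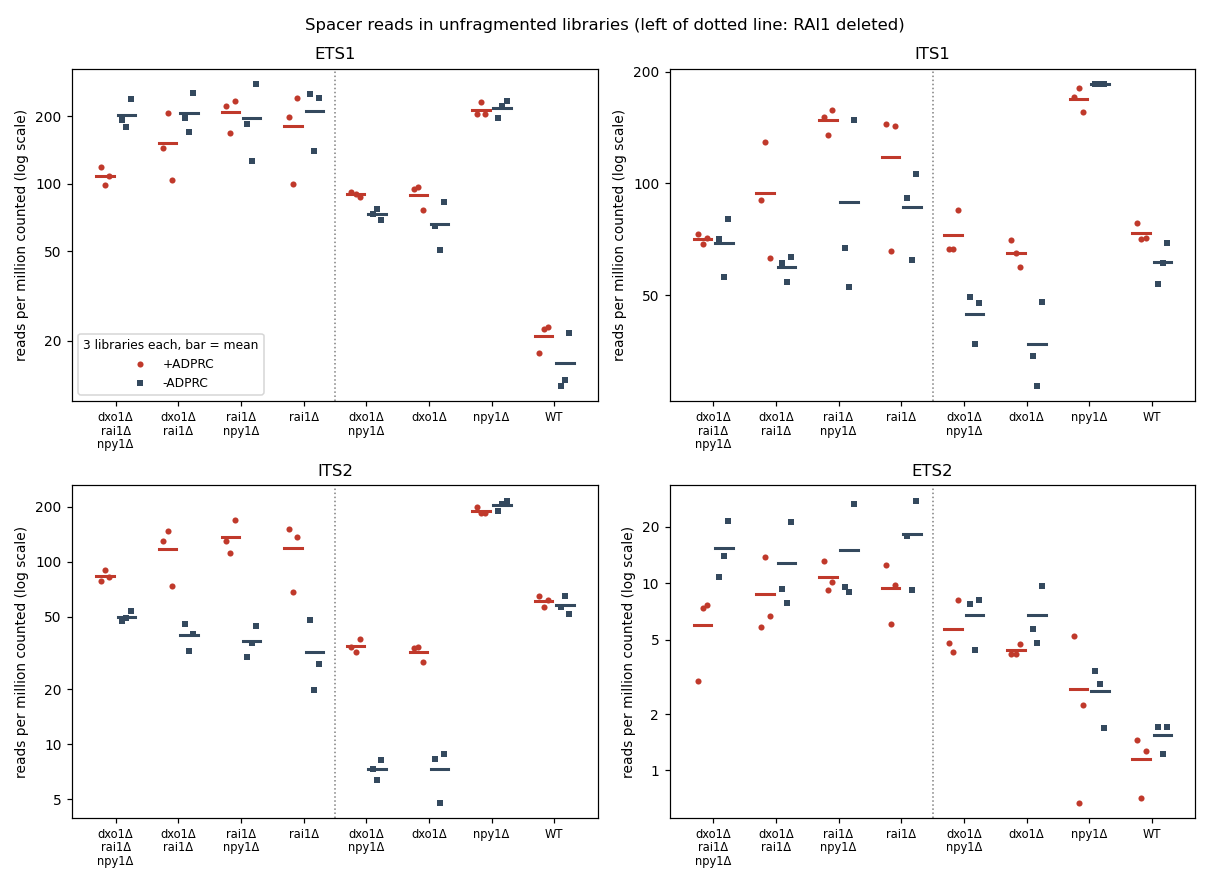
Reads per 1000000 counted reads (log axis) of each spacer in the 48 unfragmented libraries, with a point per replicate and a bar at the strain mean, strains without RAI1 on the left. In −ADPRC libraries ETS1 is level in the 4 strains without RAI1 and in npy1Δ (means of 197 to 217 rpm) and lowest in WT (15.8 rpm), while ITS2 is lowest in dxo1Δ and dxo1Δnpy1Δ.

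Taking the strain as the unit, ETS2 averaged 15.4 ± 2.23 rpm over the 4 strains without RAI1 and 4.42 ± 2.71 rpm over the 4 strains with RAI1 in −ADPRC libraries (SD of strain means). The exact two-sided permutation test gave p = 0.0286, the smallest that 4 against 4 strains allow, and 0.114 after Benjamini-Hochberg adjustment over the 8 tests of 4 spacers and both treatments. In +ADPRC libraries ETS2 averaged 8.76 ± 2.03 rpm in strains without RAI1 and 3.49 ± 1.98 rpm in strains with RAI1, again without overlap (exact permutation p = 0.0286, adjusted p = 0.114). ETS1 averaged 204 ± 6.07 rpm without RAI1 and 93.0 ± 86.4 rpm with RAI1 in −ADPRC libraries (exact permutation p = 0.143). The corresponding exact permutation p was 0.257 for ETS1 in +ADPRC libraries and at least 0.429 for ITS1 and ITS2 in either treatment. None of the 8 tests passed after adjustment. Without WT, the difference between strains without and with RAI1 in −ADPRC libraries was 9.97 rpm for ETS2 (exact permutation p = 0.0286) and 85.6 rpm for ETS1 (exact permutation p = 0.143), and in +ADPRC libraries 4.49 rpm for ETS2 (exact permutation p = 0.0571) and 31.0 rpm for ETS1 (exact permutation p = 0.486). Taken over the 4 runs, no such test can give a p below 0.333.

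With a common spread estimated over all 48 unfragmented libraries, ETS1 and ETS2 were called higher in −ADPRC libraries of strains without RAI1. The log2 fold change was 1.24 (SE 0.37) and 1.37 (SE 0.37) for the copies of ETS1, with adjusted p of 0.0119 and 0.00522, and 1.53 (SE 0.40) and 1.47 (SE 0.40) for those of ETS2, with adjusted p of 0.00374 and 0.00549 (edgeR quasi-likelihood test, Benjamini-Hochberg over 1228 RNAs). ITS1 was at −0.27 and −0.24, and ITS2 at 0.07 and 0.18, none of them called. So 2 of 4 spacers were called higher and 0 lower, where 7.74% of all RNAs tested were called higher and 4.23% lower. The median log2 fold change over all RNAs tested was 0.10, or 0.39 with total counts. Of all RNAs called, 64.6% were higher, against 83.0% with total counts and 46.5% with factors computed without rRNA and tRNA. ETS1 and ETS2 were called higher under these scalings too.

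**Figure D2:**
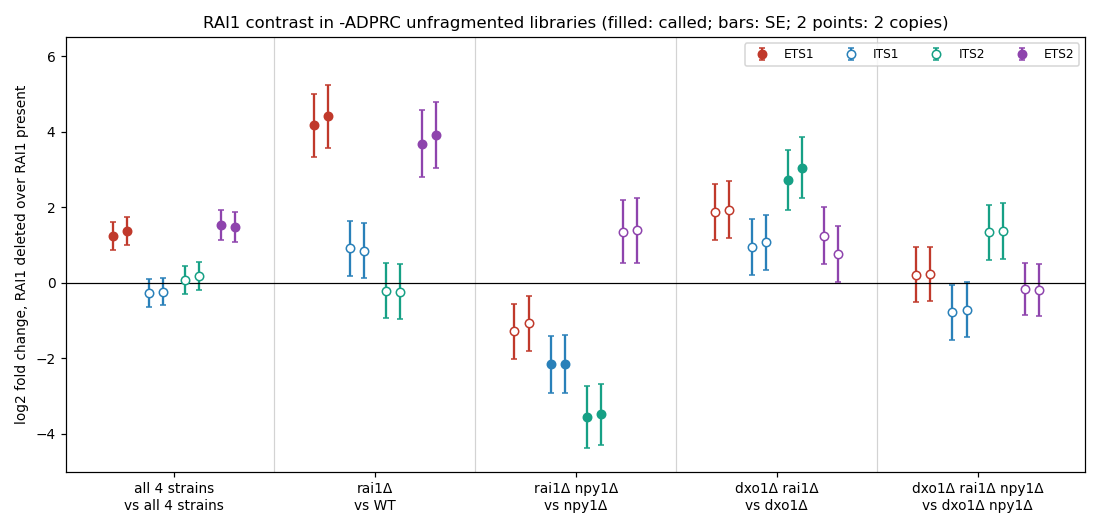
Fitted log2 fold change of each spacer copy, strains without RAI1 over strains with RAI1, for −ADPRC unfragmented libraries, over all strains and in each pair of strains that differs only by RAI1; error bars are standard errors. ETS1 lies above 4 on the log2 scale in rai1Δ over WT and at −1.29 and −1.07 in rai1Δnpy1Δ over npy1Δ.

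The 4 pairs of strains that differ only by RAI1 did not move alike. In rai1Δ over WT, ETS1 was called higher by 4.17 and 4.40 on the log2 scale (SE 0.83 and 0.84), and ETS2 by 3.68 and 3.91 (SE 0.89 and 0.87). In dxo1Δrai1Δ over dxo1Δ, only ITS2 was called higher, by 2.72 and 3.04 (SE 0.79 and 0.80), while ETS1 was at 1.87 and 1.94. In rai1Δnpy1Δ over npy1Δ, ITS1 was called lower, at −2.16 and −2.14, and ITS2 lower, at −3.56 and −3.48, with ETS1 at −1.29 and −1.07. In dxo1Δrai1Δnpy1Δ over dxo1Δnpy1Δ no spacer was called, and ETS1 was at 0.22 and 0.23. Among all RNAs tested the median log2 fold change over these pairs was 0.59 in rai1Δ over WT, 1.39 in dxo1Δrai1Δ over dxo1Δ, −2.19 in rai1Δnpy1Δ over npy1Δ and 0.14 in the pair that lacks DXO1 and NPY1. In rai1Δnpy1Δ over npy1Δ, ITS1 was thus near the median of all RNAs, so its call does not set it apart from them. ITS2 was below that median and ETS1 above it. Each pair also compares different sequencing runs.

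The ETS1 and ETS2 calls did not hold without WT. Without the WT libraries, a setting added after the values were seen, 0 spacers were called. ETS1 was then at 0.26 and 0.38 and ETS2 at 0.78 and 0.77 on the log2 scale. Leaving out the run of WT and npy1Δ, or that of dxo1Δrai1Δ and dxo1Δrai1Δnpy1Δ, likewise gave 0 calls, and ETS2 was at −0.13 and −0.32 without the run of WT and npy1Δ. All these settings left the strains with and without RAI1 unequal in DXO1 genotype, and leaving out WT alone also in NPY1 genotype. The part of this imbalance in the lost calls was not tested. Of single libraries, leaving out replicate 1 of rai1Δ or replicate 3 of dxo1Δrai1Δnpy1Δ reduced the calls to 1 spacer.

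In +ADPRC libraries no spacer was called between strains without and with RAI1 by both copies. ETS1 was at 0.63 and 0.57 on the log2 scale (SE 0.37 and 0.36). ETS2 was at 0.80 and 1.36 (SE 0.39 and 0.40), and the second copy alone passed (edgeR, adjusted p = 0.00488). ITS2 was at 0.47 and 0.48, and ITS1 at −0.20 and −0.19. Among 5573 RNAs tested in +ADPRC libraries 23.6% were called higher and 8.7% lower, with a median log2 fold change of 0.33 (0.76 with total counts). The count of spacers depended on scaling: all 4 spacers were called higher with DESeq2, with its size factors, and with 18S and 25S reads as library size, and 3 with total counts. Under these settings many other RNAs were called too: 2837 of 5573 RNAs were called higher with DESeq2 (median log2 fold change 1.06), 3237 of 5573 with its size factors (1.06), 3520 of 5581 with 18S and 25S reads (1.15) and 2495 of 5616 with total counts (0.76). Without WT 0 spacers were called in +ADPRC libraries, with ETS1 at −0.0058 and 0.059 and ETS2 at 0.54 and 0.93.

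Whether the RAI1 contrast differed between treatments was tested as an interaction, in which a run effect shared by both treatments cancels. It was negative for ETS1 (−0.61 and −0.81, SE 0.51) and ETS2 (−0.73 and −0.11), near 0 for ITS1 (0.07 and 0.05) and positive for ITS2 (0.40 and 0.30). With edgeR 0 spacers were called, where 0% of 4712 RNAs were called higher and 0.382% lower, and 208 RNAs had an unadjusted p under 0.05. DESeq2 called ITS1 and ITS2 higher, where it called 247 of 4712 RNAs higher and 70 lower (median 0.41), and edgeR with DESeq2 size factors called ITS2, where 93 of 5213 RNAs were called higher and 55 lower (median 0.97). Without WT 0 spacers were called, with ETS1 at −0.26 and −0.32 and ITS2 at 0.42 and 0.32.

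Ratios between spacers within one library do not depend on its scaling. ETS1 took 56.0% to 67.0% of the spacer reads in the 12 −ADPRC libraries without RAI1, against 9.46% to 61.7% in the 12 with RAI1. The ratio of ETS1 to ITS1 ran from 1.88 to 4.00 with a median of 2.75 without RAI1, against 0.218 to 2.08 with a median of 1.36 with RAI1. Strain means of this ratio were 3.45 ± 0.48 in dxo1Δrai1Δ, 2.97 ± 0.26 in dxo1Δrai1Δnpy1Δ, 2.42 ± 0.27 in rai1Δ and 2.35 ± 0.44 in rai1Δnpy1Δ. They were 1.80 ± 0.08 in dxo1Δ, 1.68 ± 0.35 in dxo1Δnpy1Δ, 1.17 ± 0.10 in npy1Δ and 0.255 ± 0.050 in WT (SD, n = 3 each). All 4 means without RAI1 were thus above all 4 with RAI1, by a margin that for rai1Δnpy1Δ over dxo1Δ was close to the replicate SD. In +ADPRC libraries the ratio was 1.24 to 1.69 without RAI1 and 0.226 to 1.49 with RAI1.

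The share of ETS1 in the spacer reads also varied with the kind of library in npy1Δ and WT, over a wider range in WT. In −ADPRC libraries of npy1Δ, ETS1 made up 35.6 ± 1.31% of the spacer reads in unfragmented RNA, 65.8 ± 0.323% in small fragments and 69.9 ± 1.56% in large fragments (SD, n = 3 each). In WT it made up 11.5 ± 3.01% in unfragmented RNA, but 60.4 ± 3.49% in small fragments and 67.3 ± 1.60% in large fragments. The library kinds were sequenced and scaled apart, so these shares are set side by side without a test.

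The +ADPRC and −ADPRC libraries of a strain were compared within a run, which asks whether a spacer is enriched as an NAD-capped RNA would be. Of 48 combinations of 4 spacers and 12 capture sets, 2 were called higher and 14 lower in +ADPRC. Those called higher were ITS2 in dxo1Δ, by 1.22 and 1.35 on the log2 scale (SE 0.31 and 0.32), and in rai1Δnpy1Δ, by 1.44 and 1.19 (SE 0.31 and 0.30). All RNAs tested give the background for these calls: 87.3% of them were called higher in +ADPRC in dxo1Δ, 83.2% in rai1Δnpy1Δ, 63.8% in dxo1Δnpy1Δ, 72.8% in dxo1Δrai1Δ, 56.7% in dxo1Δrai1Δnpy1Δ, 65.5% in rai1Δ and 45.2% in npy1Δ. In 6 of these 7 strains most RNAs tested thus rose in +ADPRC, while among the spacers only ITS2 in dxo1Δ and rai1Δnpy1Δ did. An RNA was tested when its mean over both treatments passed the filter, so RNAs read almost only in +ADPRC libraries are among them. In the RAI1 fits of unfragmented libraries, 1228 RNAs passed on −ADPRC libraries and 5573 on +ADPRC libraries. How far the filter raises the shares called higher was not tested. ETS2 was called lower in dxo1Δ, dxo1Δnpy1Δ, dxo1Δrai1Δ, dxo1Δrai1Δnpy1Δ and rai1Δ, where 7.77%, 9.44%, 7.77%, 7.77% and 8.28% of all RNAs were called lower (7.95% in rai1Δnpy1Δ, where no spacer was by both copies). ETS1 was called lower in the last 4 of these strains and in npy1Δ (7.48% of all RNAs lower). ITS1 was lower in dxo1Δnpy1Δ, dxo1Δrai1Δ and npy1Δ, and ITS2 in npy1Δ. In WT, where 39.8% of RNAs were called higher and 3.68% lower, 0 spacers were called. The same held in fragmented RNA, where few RNAs passed at all: 3.63% higher and 0.211% lower in small fragments of npy1Δ, 0.948% and 0.178% in those of WT, 2.73% and 0.55% in large fragments of npy1Δ, and 1.99% and 0.871% in those of WT. With the copies summed, ETS2 was also called lower in rai1Δnpy1Δ, at −0.93 (edgeR adjusted p = 0.0156). It was called lower in large fragments of npy1Δ too, at −2.39 (edgeR adjusted p = 0.0379). ITS1 in dxo1Δrai1Δ was then not called, at −0.82 (edgeR adjusted p = 0.0552).

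These calls depended on scaling. With total counts 9 combinations were called higher and 2 lower, and with factors computed without rRNA and tRNA 0 were called higher and 28 lower. With total counts ITS2 was called higher in each of the 6 strains lacking DXO1 or RAI1, by 2.12 and 2.22 in dxo1Δ, 2.17 and 2.17 in dxo1Δnpy1Δ, 1.77 and 1.93 in rai1Δ, 2.03 and 1.84 in rai1Δnpy1Δ, 1.61 and 1.50 in dxo1Δrai1Δ, and 0.72 and 0.74 in dxo1Δrai1Δnpy1Δ. It was at −0.08 and −0.13 in npy1Δ, and at 0.08 and 0.08 in WT. These values were below the median of all RNAs tested in each of the 6 strains, a median that includes RNAs read almost only in +ADPRC libraries. With total counts 4084 of 4504 RNAs were called higher in dxo1Δ, 4791 of 5207 in dxo1Δnpy1Δ, 3805 of 4418 in rai1Δ, 3110 of 3568 in rai1Δnpy1Δ, 4448 of 5191 in dxo1Δrai1Δ and 4689 of 5361 in dxo1Δrai1Δnpy1Δ. The median log2 fold change over all RNAs tested was 4.92 in dxo1Δrai1Δnpy1Δ, the lowest of the 6, and 6.21 in dxo1Δnpy1Δ, the highest.

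The ratio of ITS2 to ITS1 shows the same contrast without any scaling. It averaged 0.493 in +ADPRC and 0.198 in −ADPRC libraries of dxo1Δ, and 0.479 in +ADPRC and 0.164 in −ADPRC libraries of dxo1Δnpy1Δ. It averaged 1.02 in +ADPRC and 0.369 in −ADPRC libraries of rai1Δ, and 0.923 in +ADPRC and 0.478 in −ADPRC libraries of rai1Δnpy1Δ. In dxo1Δrai1Δ the means were 1.25 in +ADPRC and 0.661 in −ADPRC libraries, and in dxo1Δrai1Δnpy1Δ 1.18 in +ADPRC and 0.741 in −ADPRC libraries. The 3 replicates of each treatment did not overlap in these 6 strains. They did in npy1Δ (1.13 in +ADPRC, 1.10 in −ADPRC) and in WT (0.831 in +ADPRC, 0.955 in −ADPRC). An exact permutation test of 3 against 3 libraries cannot go below p = 0.10, so none was run for a single strain.

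**Figure D3:**
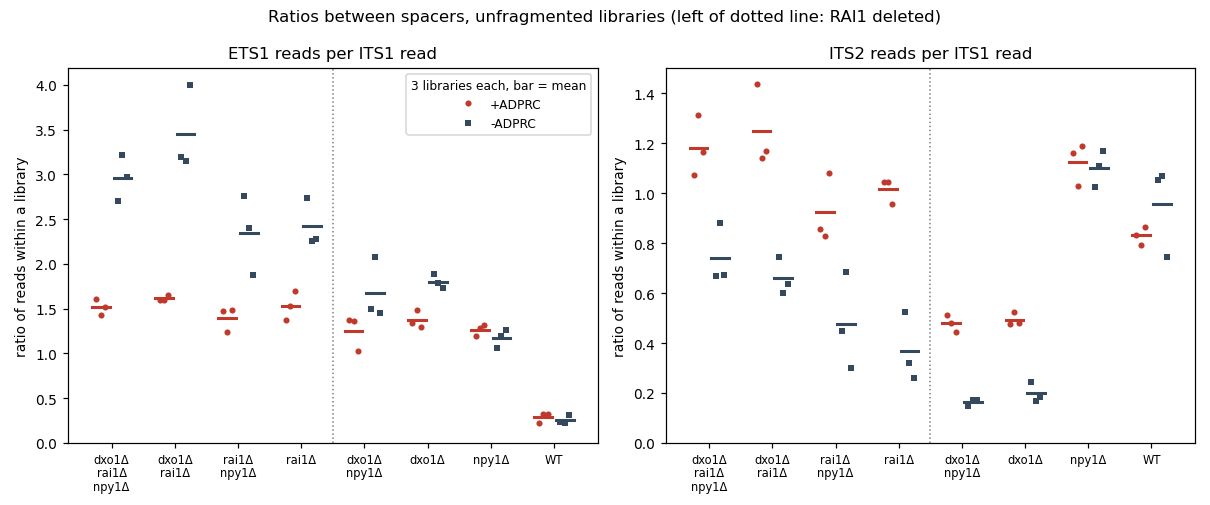
Ratio of ETS1 to ITS1 reads and of ITS2 to ITS1 reads (linear axes) in each unfragmented library by strain, +ADPRC left of −ADPRC within a strain. The ratio of ITS2 to ITS1 is higher in +ADPRC libraries of the 6 strains lacking DXO1 or RAI1 and overlaps between treatments in npy1Δ and WT.

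The mature 25S rRNA, which ITS2 adjoins, moved with the same division of strains. In −ADPRC libraries it took 8338 to 19020 rpm in the 6 strains lacking DXO1 or RAI1, against 57780 to 67930 rpm in npy1Δ and 73946 to 89501 rpm in WT. In +ADPRC libraries it took 36038 to 112246 rpm over all 8 strains. In the fit of strains without RAI1 over strains with RAI1, 25S was called lower at −1.27 (SE 0.36) and 5.8S at −1.10 (SE 0.36) in −ADPRC libraries, while 18S was at −0.30 (SE 0.36) and not called. Since npy1Δ and WT form one sequencing run, the deletions and the run cannot be told apart here.

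For NPY1, each pair lies within a run. Over the 4 pairs all 4 spacers were called higher in the −ADPRC unfragmented libraries of strains without NPY1. ETS1 was at 1.84 and 1.86 on the log2 scale, ITS1 at 1.50 and 1.40, ITS2 at 1.29 and 1.47 and ETS2 at 1.42 and 1.06 (SE 0.37 to 0.40). However, 46.1% of all RNAs tested were called higher and 0.0814% lower, with a median log2 fold change of 1.22, or 0.37 with total counts, where 2 spacers were called. Without the 3 libraries of extreme scaling factor, a setting added after the values were seen, 0 spacers were called. By pair, ETS1 was called higher at 3.99 and 4.04 (SE 0.82) in npy1Δ over WT and at 3.25 and 3.27 (SE 0.78 and 0.79) in dxo1Δnpy1Δ over dxo1Δ, where all 4 spacers were called and the median over all RNAs was 3.22. In that last pair ETS1 was thus near the median of all RNAs, so its call does not set it apart from them. ETS1 was not called at 1.60 and 1.56 in dxo1Δrai1Δnpy1Δ over dxo1Δrai1Δ or at −1.47 and −1.43 in rai1Δnpy1Δ over rai1Δ. A test of that difference, added after the values were seen, called ETS1 higher in npy1Δ over WT than in the mean of the other 3 pairs, and no pair was tested against another singly. The excess was 2.86 and 2.91 in −ADPRC libraries, where 5.62% of RNAs were called higher and 3.91% lower, and 2.72 and 2.15 in +ADPRC libraries, where 29.6% were called higher and 5.17% lower. Leaving out any 1 of the 3 WT libraries ended this call in both treatments.

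The fragmented libraries repeat the npy1Δ and WT comparison in separate libraries of sheared RNA. The small fragments were selected in the same size window as the unfragmented libraries, and the large fragments in a longer one. In −ADPRC small fragments ETS1 was at 514, 405 and 515 rpm in npy1Δ, against 61.1, 71.1 and 62.7 rpm in WT. ITS1 was at 174, 142 and 170.3 rpm in npy1Δ, against 23.4, 28.4 and 26.4 rpm in WT. ITS2 was at 93.3, 64.7 and 99.5 rpm in npy1Δ, against 22.7, 13.6 and 11.2 rpm in WT. For these 3 spacers no library of WT reached the lowest one of npy1Δ, and they were called higher by 2.35 and 2.31 (ETS1), 2.09 and 2.07 (ITS1), and 1.91 and 1.93 (ITS2) on the log2 scale (SE 0.40 to 0.43), where 29.2% of 3814 RNAs were called higher and 12.5% lower with a median of 0.86 (1.47 with total counts). ETS2, at 1.46, 0.452 and 0.113 rpm in npy1Δ and 1.12, 0.597 and 0.276 rpm in WT, was not called, with 1 to 14 reads per library.

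In −ADPRC large fragments ETS1 was at 633, 503 and 611 rpm in npy1Δ, against 82.1, 82.9 and 79.8 rpm in WT. ETS1 was called higher there by 2.46 and 2.39 (SE 0.53), ITS1 by 2.39 and 2.28 and ITS2 by 2.06 and 2.23 (SE 0.52), where 30.6% of 3775 RNAs were called higher and 11.5% lower with a median of 0.94 (1.39 with total counts). ETS2 rested on 2 to 25 reads per library, and was at 0.51 and 0.40 and not called. Mature 18S and 25S rRNA, which took most of the reads in these libraries, were at −0.44 and −0.54 in small fragments and at −0.32 and −0.38 in large fragments on the log2 scale, not called. With shearing of 20 min in npy1Δ and 5 min in WT, the strain and the shearing time cannot be told apart.

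**Figure D4:**
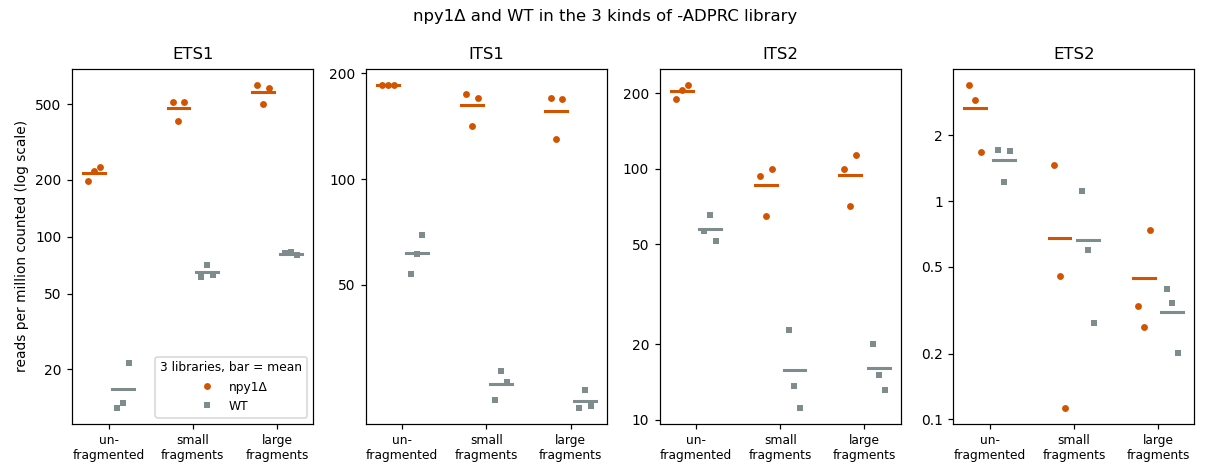
Reads per 1000000 counted reads (log axis) of each spacer in −ADPRC libraries of npy1Δ (left of each pair) and WT (right), for unfragmented RNA, small fragments and large fragments, with a point per replicate and a bar at the mean. ETS1, ITS1 and ITS2 are higher in npy1Δ in all 3 kinds (ETS1 at 405 to 515 rpm in npy1Δ and 61.1 to 71.1 rpm in WT in small fragments), and ETS2 overlaps in both kinds of fragments.

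For DXO1, which like RAI1 is compared between runs, ETS1 and ETS2 were called higher in −ADPRC unfragmented libraries of strains without DXO1. ETS1 was at 1.72 and 1.65 (SE 0.37) and ETS2 at 2.34 and 2.40 (SE 0.40) on the log2 scale. ITS1 was at 0.67 and 0.73 and ITS2 at −0.22 and −0.33, not called. Among all RNAs 25.7% were called higher and 1.3% lower, and of those called 95.2% were higher, against 17.0% with total counts. The median over all RNAs was 0.72 with TMM scaling and −0.81 with total counts, and with total counts 1 spacer was called higher and 2 lower. Without the 3 libraries of extreme scaling factor 0 were called higher and 1 lower.

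The RNAs whose levels were most like those of the summed spacers were sought over the 24 −ADPRC unfragmented libraries, among 462 RNAs with a mean of at least 10 reads. On log2 TMM-scaled counts per 1000000 the 5 closest by Pearson's r were RPL41A (0.968), encoding a small ribosomal protein of the large subunit, the tryptophan tRNAs tW(CCA)K (0.966) and tW(CCA)M (0.959), RPL41B (0.957), a paralogue of RPL41A, and CCW12 (0.954), encoding a cell wall mannoprotein. The 24 points share libraries and scaling factors, and the median r of all 462 RNAs was 0.831, or 0.454 with total counts, where the glycolytic gene TDH3 (0.965) came first and RPL41A was number 13. RPL41A and RPL41B, and the tRNA copies, have nearly the same sequence, so reads may be split between them by counting.

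Reads divided almost evenly between the listed copies of a spacer. For ETS1, copy 1 had 59425 reads and copy 2 had 59919, so copy 1 held 49.8% (95% Wilson interval 49.5% to 50.1%). It held 50.3% for ITS1, 50.2% for ITS2 and 47.4% for ETS2 (45.5% to 49.4%), over all 72 capture libraries. The copies stand for a repeat with near-identical sequence and are not independent measurements. The intervals cover counting error only.

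The spacers are not counted in the transcriptome tables, so a list of 45 genes for enzymes that cut, trim or degrade rRNA spacers was compared there in strains without and with RAI1. Among 18 libraries of 1 run, dxo1Δrai1Δ and dxo1Δrai1Δnpy1Δ were set against dxo1Δ and dxo1Δnpy1Δ. The list had 5 of 45 genes higher and 2 lower, where 11.9% of 6961 genes were called higher and 9.65% lower. It was thus called no more often than all genes in either direction, and the genes named below are no result about the list. The median log2 fold change of the list was 0.15 against 0.014 over all genes. RMP1 (0.73) and POP4 (0.54) encode subunits of RNase MRP, which cuts ITS1, RRP4 (0.54) and RRP43 (0.52) encode exosome subunits, and RNH70 (0.53) encodes a 3′ exonuclease. Lower were RAI1 itself, at −7.39, and XRN1, the cytoplasmic 5′-to-3′ exonuclease, at −0.76 (SE 0.09, edgeR adjusted p = 4.46e-08). RAT1 was at −0.16 (SE 0.13) and RNT1 at 0.11 (SE 0.15), neither of them called. On coding-sequence counts only RAI1 of the list was called lower and only POP7 higher, which encodes another subunit of RNase MRP and was named after its value was seen (0.50). XRN1 was then at −0.41 (edgeR adjusted p = 9.75e-06), short of the fold threshold, RMP1 at 0.46, POP4 at 0.29, RRP4 at 0.21, RRP43 at 0.12 and RNH70 at −0.04.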

How the data were processed

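RNA from 96 libraries of 8 strains was sequenced by the authors as single 75-base reads. According to the study's methods, adapters were trimmed and reads of at least 18 nt were mapped with Bowtie to the BY4742_Toronto_2012 assembly. Reads of rRNA and tRNA were counted apart and the rest with HTSeq, and mRNAs in capture libraries were counted near the translation start. Transcriptome RNA was rRNA-depleted (Ribo-Zero). The submitters' processing notes name DESeq2 1.4.5 and SAMtools 0.1.13. The deposited count tables hold raw counts. The authors' comparison tables hold base means, log2 fold changes, standard errors, statistics and p-values and were not used.

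Counts were tested with edgeR 4.0.16 (quasi-likelihood, TMM factors from the whole table, R 4.3.3) in RNAs with a mean normalized count above 1. An RNA was called when its Benjamini-Hochberg adjusted p was under 0.05 and its log2 fold change lay beyond 0.5 in either direction. Shares were computed with pandas 2.3.3 and SciPy 1.17.1 as reads per 1000000 counts in a table. The entry of the 37S precursor repeats the reads of its parts (1.00 to 1.14 times their sum), and leaving it out of the total, an alternative added after the values were seen, changed no call of the strain test. Alternatives were DESeq2 1.42.0, its size factors, total counts, 18S and 25S reads or factors without rRNA and tRNA as scaling, other filters, summed copies, a replicate block, pairs of strains, and leaving out libraries, strains or runs.

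Every spacer entry, the rRNA neighbours, the deleted genes, the 5 RNAs most like the summed spacers and called genes of the processing list are named. RAT1 and RNT1 were named after their values were seen. The members and lists were chosen with earlier results of these data known. Scripts were tested on simulated data. With 470978 to 29300164 counts per unfragmented library, counting error limits ETS2 (3 to 417 reads in unfragmented −ADPRC libraries) more than the other spacers. The labels give biological replicates. The edgeR and DESeq2 p-values measure the spread between replicates of a strain and treatment, not that between strains. The exact permutation p-values measure the spread between strain means.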

Additional observations from a re-analysis of the deposited data

Results flagged for a closer look

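The difference between npy1Δ and WT in ETS1 exceeded the mean of the other 3 pairs of strains that differ by NPY1, in a test added after the values were seen. It was not tested against each pair singly, and in dxo1Δnpy1Δ over dxo1Δ ETS1 was also called higher in −ADPRC libraries, at 3.25 and 3.27 (SE 0.78 and 0.79), against 3.99 and 4.04 (SE 0.82) in npy1Δ over WT. In dxo1Δnpy1Δ over dxo1Δ these values were near the median of all RNAs. In −ADPRC unfragmented libraries the log2 difference of npy1Δ over WT exceeded the mean of the other 3 pairs by 2.86 (SE 0.87, edgeR adjusted p = 0.0197) and 2.91 (SE 0.87, adjusted p = 0.0176) for the copies of ETS1, where 5.62% of all RNAs were called higher and 3.91% lower. In +ADPRC libraries the excess was 2.72 (SE 0.88, edgeR adjusted p = 0.00991) and 2.15 (SE 0.86, adjusted p = 0.041), where 29.6% of all RNAs were called higher and 5.17% lower. ETS1 was at 196, 221 and 234 rpm in npy1Δ and at 12.6, 13.3 and 21.6 rpm in WT in −ADPRC libraries, with no overlap. ITS1, ITS2 and ETS2 were called in neither treatment. Without any 1 of the 3 WT libraries 0 spacers were called in either treatment. WT carries RAI1, DXO1 and NPY1 but had hardly any reads of them in unfragmented +ADPRC libraries, and the part of this in the difference was not tested. In unfragmented −ADPRC libraries these genes had 0 or 1 reads in every strain, also in those that carry them, so the check cannot be made there for any strain.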

How the results depend on the processing

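Counts below are spacers of 4 called higher unless stated, and settings named as added were chosen after the data were seen. The RAI1 contrast in −ADPRC libraries (2 called) gave 2 under 11 alternatives of scaling, test, filter or libraries, in rai1Δ over WT and without the run of dxo1Δ and dxo1Δnpy1Δ, 3 without the run of rai1Δ and rai1Δnpy1Δ, 1 without a filter and in dxo1Δrai1Δ over dxo1Δ, and 0 in dxo1Δrai1Δnpy1Δ over dxo1Δnpy1Δ (ETS2 at −0.16 and −0.19), in rai1Δnpy1Δ over npy1Δ (2 called lower, ETS1 at −1.29 and −1.07), without WT (added), without the run of WT and npy1Δ (ETS2 at −0.13 and −0.32) and without that of dxo1Δrai1Δ and its npy1Δ derivative. In +ADPRC libraries (0 called) it gave 4 with DESeq2, its size factors or 18S and 25S as library size, 3 with total counts or without the run of rai1Δ and rai1Δnpy1Δ, 2 without the run of dxo1Δ and dxo1Δnpy1Δ, and 1 with summed copies, at unadjusted p, in rai1Δ over WT or with a replicate block. The interaction (0) gave 2 with DESeq2, 1 with its size factors, and 1 lower with TMM factors of the filtered RNAs (added). The NPY1 contrast (4) gave 1 with DESeq2, its size factors or factors without rRNA and tRNA, 2 with total counts, without WT (added) or in npy1Δ over WT, and 0 in dxo1Δrai1Δnpy1Δ over dxo1Δrai1Δ, in rai1Δnpy1Δ over rai1Δ and without the 3 libraries of extreme scaling factor (added). In rai1Δnpy1Δ over rai1Δ the copies were at −1.47 and −1.43 (ETS1), −1.27 and −1.27 (ITS1), −1.50 and −1.28 (ITS2), −1.14 and −1.89 (ETS2), and ETS2 was also at −0.019 and −0.57 without those 3 libraries and its second copy at −0.060 with DESeq2 and −0.056 with its size factors. The DXO1 contrast (2 higher, 0 lower) gave 1 higher with total counts or without WT, 0 higher and 1 lower without the 3 libraries, and 2 lower with DESeq2, its size factors or total counts. The test of npy1Δ over WT against the other pairs (added, 1 called) gave 3 in both treatments with DESeq2, its size factors or total counts, 3 in −ADPRC without the 3 libraries, and 0 without a filter in both and in +ADPRC with factors without rRNA and tRNA. ADPRC enrichment (2 higher and 14 lower of 48) gave 7 and 9 with DESeq2 or its size factors, 9 and 2 with total counts, 0 and 28 with factors without rRNA and tRNA (ITS2 at −0.86 and −0.73 in dxo1Δ, −0.18 and −0.50 in rai1Δnpy1Δ) and 8 lower with a replicate block. Whether replicate numbers pair the samples was not settled, since each set has only 3 replicates. Of 36 pairs of same-numbered libraries 9 correlated above 0.1, with a range of −0.70 to 0.74. The block changed no other count of spacers over all sets. Listed transcriptome genes (5 higher, 2 lower) gave 31 higher with all 24 libraries and 1 higher and 1 lower on coding-sequence counts (RNH70 at −0.040). Leaving out single libraries gave 1 to 2 spacers higher for RAI1 in −ADPRC, 0 to 1 in +ADPRC (1 without replicate 3 of dxo1Δ, rai1Δ or rai1Δnpy1Δ or replicate 1 of npy1Δ), 0 higher and 0 to 1 lower for the interaction (1 without replicate 1 of +ADPRC rai1Δ or npy1Δ), 3 to 4 for NPY1, 2 to 3 for DXO1, 3 in either kind of fragments, 0 to 1 for npy1Δ over WT against the other pairs (0 in −ADPRC without any WT library, and in +ADPRC without any WT library, replicate 2 or 3 of npy1Δ or dxo1Δrai1Δ, or replicate 2 of dxo1Δnpy1Δ or dxo1Δrai1Δnpy1Δ), 2 to 3 higher and 12 to 16 lower for ADPRC, and 2 to 6 listed genes higher and 2 lower (2 higher without replicate 3 of dxo1Δrai1Δ or replicate 2 of dxo1Δrai1Δnpy1Δ, 3 without replicate 1 of dxo1Δ or replicate 2 or 3 of dxo1Δnpy1Δ). Over strain means (exact permutation test), the rpm difference between strains without and with RAI1 was 153 for ETS1 in −ADPRC and 71.6 for ITS2 in +ADPRC without npy1Δ (p = 0.0286 each), 1117 for ETS1 per 1000000 18S and 25S reads (p = 0.0286) and 89.2 for ETS2 on that scale (p = 0.0857). For ETS2 in +ADPRC it was 4.49 without WT, 5.01 without npy1Δ, 5.57 without dxo1Δ, 6.01 without dxo1Δnpy1Δ, 5.04 without rai1Δ and 4.58 without rai1Δnpy1Δ (exact permutation p = 0.0571 each). The causes of these shifts were not tested. The shallowest library held 470978 counts, and ETS2 rested on as few as 2 reads in unfragmented libraries of WT and npy1Δ, both +ADPRC, and 3 in −ADPRC libraries of WT.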
